A study of Mus musculus with 10 samples.

Results

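Genes of membrane transport between the endoplasmic reticulum (ER), the Golgi apparatus and endosomes were measured in mouse liver on Affymetrix MG_U74Cv2 oligonucleotide arrays. Members were chosen by symbol: the numbered Rab, Arf, Arl, Sec, Tmed, Vps, Snx, Stx and Vamp genes, the Trappc genes, the COPI coat genes and the Nap genes of the SNAP proteins. The rule gave 75 genes on 86 probe sets, out of 5928 genes and 11868 tested probe sets, and used no measured value. A gene was represented by its brightest probe set, and 10 of the 75 genes have more than 1.

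Most members belong to the Rab family (25 genes), the sorting nexins (10), the Vps proteins (9) and the syntaxins (7). Another 6 are Sec proteins, 4 each are Arf or Arl GTPases, COPI subunits, Tmed receptors and TRAPP subunits, and 1 each is a Vamp and a SNAP. The name does not always give a transport function. Sec1 is a fucosyltransferase, Sec14l1 belongs to a family of lipid transfer proteins and Vps72 is a chromatin protein. Rab10os is a transcript from the strand opposite Rab10, and Rab5if is named as an interactor of Rab5. Rab3ip, Rab3gap2, Rab11fip1 and Rab11fip5 are regulators or effectors of Rab proteins.

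Sterol regulatory element-binding proteins (SREBPs) are made as ER membrane proteins bound to the escort protein SCAP. When sterols are scarce, SCAP carries them in COPII-coated vesicles to the Golgi, where proteases release the nuclear part that activates genes of cholesterol and fatty acid synthesis. COPI coats carry proteins back to the ER, TRAPP complexes and Rab GTPases direct and tether vesicles, and SNARE proteins such as syntaxins and Vamps fuse them. Sorting nexins and Vps proteins act mainly at endosomes and lysosomes.

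All animals were male, and every group was 1 pool of liver RNA from 5 mice (20 µg in all) hybridised to 2 arrays, so that 10 arrays stood for 5 groups. Scap-/- livers came from animals of 10 to 12 weeks that carried MX1-Cre and lacked SCAP after 4 intraperitoneal doses of polyinosinic-polycytidylic acid. Their wild-type counterparts (Scap wild type) had the same 4 injections; the labels do not say whether they carried MX1-Cre or the Scap allele that it deletes. Both groups ate Teklad chow until 14 days after the last one. TgSREBP-1a and TgSREBP-2 mice carry transgenes for nuclear forms of the human proteins, which do not need the SCAP route. They and their wild-type littermates (SREBP wild type) were aged 12 to 16 weeks and ate a diet high in protein and low in carbohydrate for 2 weeks. MX1-Cre is interferon-inducible and is not limited to hepatocytes, and whole liver was profiled. In such bulk RNA, fewer cells of a type and less RNA per cell cannot be told apart.

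The question put to the members was whether loss of SCAP, or an excess of nuclear SREBP, went with another level of the transport machinery. Values are log2 signals, and a difference of 1 is a doubling. A gene was called where the limma adjusted p was under 0.05 and the difference at least 1.5-fold. With 1 pool a group, these p-values measure the spread between hybridisations, not between mice.

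Array medians lay between 4.69 and 4.77, duplicate arrays correlated at 0.992 to 0.995 across probe sets, and for 6 of the 10 arrays the closest array was not the duplicate but one from a different group. The 18S ribosomal RNA control signal ranged from 6.06 to 8.70, and in each group it was higher on replicate 2 than on replicate 1. Scap, Srebf1 and Srebf2 themselves were not among the genes measured here, which left the deletion and the transgenes unchecked at their own transcripts. Of 5 listed SREBP response genes, 3 were called lower in Scap-/-, 5 higher in TgSREBP-1a and 4 higher in TgSREBP-2. The sterol dehydrogenase Nsdhl had the largest differences of these genes, at -2.47, 3.12 and 3.50. The smallest were those of Abcg8 in Scap-/- (-0.21) and TgSREBP-1a (1.35), and of Fads2 in TgSREBP-2 (1.18). Of the 4 measured hepatocyte markers, Fga (mean 8.88) and Tdo2 (7.73) were bright, while Ahsg (2.86) and Serpina1a (3.43) had low signals on this array. Detection calls were not used here, and a low signal may be background; 36 members lay below the median probe set (4.74) and 39 above it, from Rab40b (2.52) to Vps72 (8.75).

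The transport genes were nearly level across the 5 groups, but so was most of the array. Differences were under 1.25-fold in 88% to 100% of the members and in 93.7% to 97.9% of all probe sets, depending on the comparison. For 72 of the 75 genes the 5 group means lay within 0.5 of each other, and for 54 within 0.3, with a median span of 0.25. The other 3 were Napa (a span of 1.03), Sec63 (0.77) and Rab3c (0.51). Napa, which encodes alpha-SNAP, was the only member called in any comparison, higher in TgSREBP-1a.

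**Figure D1:**
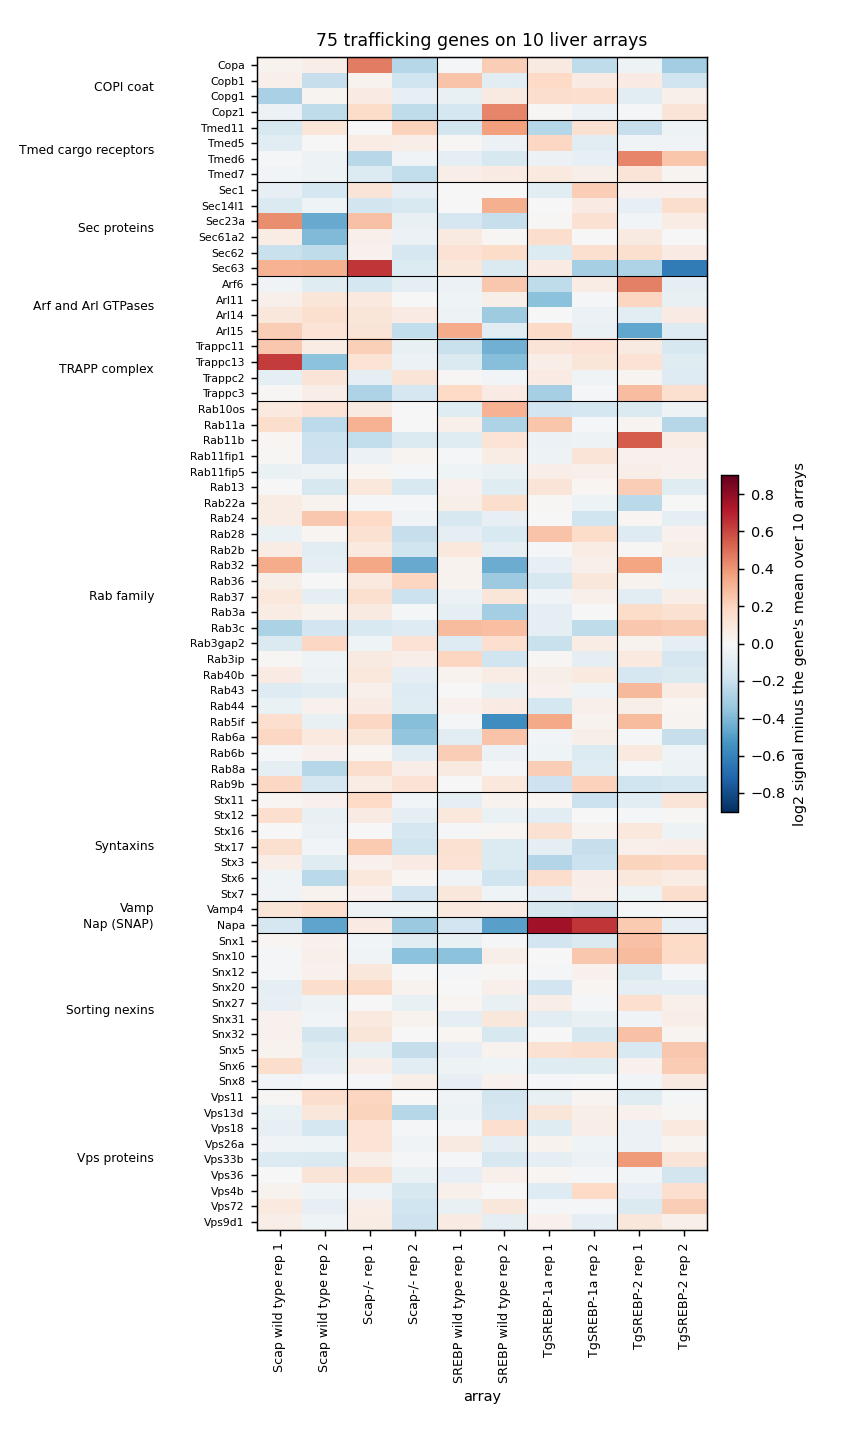
Signal of the 75 genes (rows, by family) on the 10 arrays (columns), as log2 signal minus the gene's own mean over the 10 arrays. Napa is dark red on both TgSREBP-1a arrays, while the dark cells of Sec63 and Trappc13 are single arrays; most rows are pale, and 72 genes have group means within 0.5.

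In Scap-/- against Scap wild type, 0 of 75 members were called by limma, beside 0.0843% of all tested probe sets. At an unadjusted p under 0.05 there was 1 member, or 1.33%, beside 3.8% of all probe sets. The median difference of the members was -0.01 and that of all probe sets 0.00, with median sizes of 0.07 and 0.08. Differences ran from -0.26 (Rab6a) to 0.28 (Rab8a), so that all 75 were under 1.25-fold, beside 97.9% of all probe sets. The 95% interval of all 75 lay within 2-fold either way, beside 99.6% of all probe sets. The arrays of the groups did not overlap for 21 members (28%), beside 29.7% of all probe sets.

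TgSREBP-1a against SREBP wild type gave 1 call among 75 (1.33%), beside 1.04% of all probe sets in either direction and 0.683% called higher. Over all genes, each by its brightest probe set, 1.5% were called in either direction and 1.01% higher. The share of the members is so near these backgrounds that it is no result about them as a group. At an unadjusted p under 0.05 there were 7 (9.33%), beside 9.4% of all, and the median difference was 0.00 beside -0.03. Groups did not overlap for 21 members (28%), beside 39.4%. Differences were under 1.25-fold in 69 members (92%), beside 93.7% of all probe sets and 91.9% of all genes. The 95% interval lay within 2-fold in 74 members (98.7%), Napa being the other, beside 98.3% of all probe sets.

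TgSREBP-2 against SREBP wild type gave 0 called members, beside 0.118% of all probe sets. There were 7 members at an unadjusted p under 0.05 (9.33%), beside 6.34%, and the groups did not overlap for 30 (40%), beside 35%. The median difference was 0.02 beside -0.01, and 66 members (88%) were under 1.25-fold, beside 95.8% of all probe sets. The 95th percentile of the size of a difference was 0.41 in the members and 0.30 over all probe sets.

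Between TgSREBP-1a and TgSREBP-2, 0 members were called, beside 0.514% of all probe sets. At an unadjusted p under 0.05 there were 8 (10.7%), beside 7.74%, and groups did not overlap for 26 (34.7%), beside 37%. In this comparison too, as in that of TgSREBP-2, all 75 intervals lay within 2-fold, beside 99% and 99.3% of all probe sets. Intervals within 1.5-fold were fewer: 69 members in Scap-/-, 64 in TgSREBP-1a, 63 in TgSREBP-2 and 63 between the transgenics. These were 92%, 85.3%, 84% and 84% of the members, beside 94.8%, 90.4%, 92.6% and 91.8% of all probe sets. For the other 6 to 12 members the interval reached past 1.5-fold. Both transgenic comparisons share the SREBP wild type arrays.

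**Figure D2:**
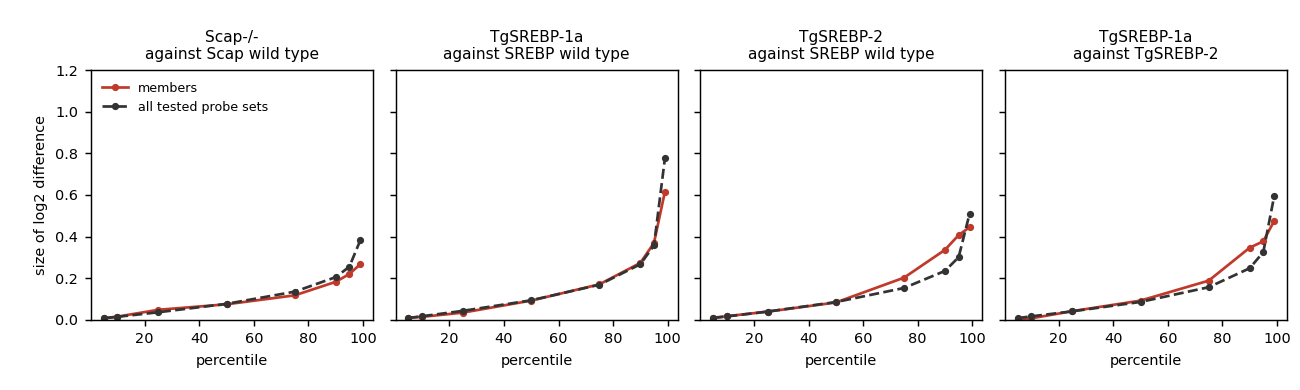
Size of the log2 difference (vertical axis) at the 5th to 99th percentile (horizontal axis) of the 75 members (solid) and of all 11868 tested probe sets (dashed), in 4 comparisons. The curves lie together at the median in each panel; in TgSREBP-2 the 95th percentile is 0.41 in the members and 0.30 over all.

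**Figure D3:**
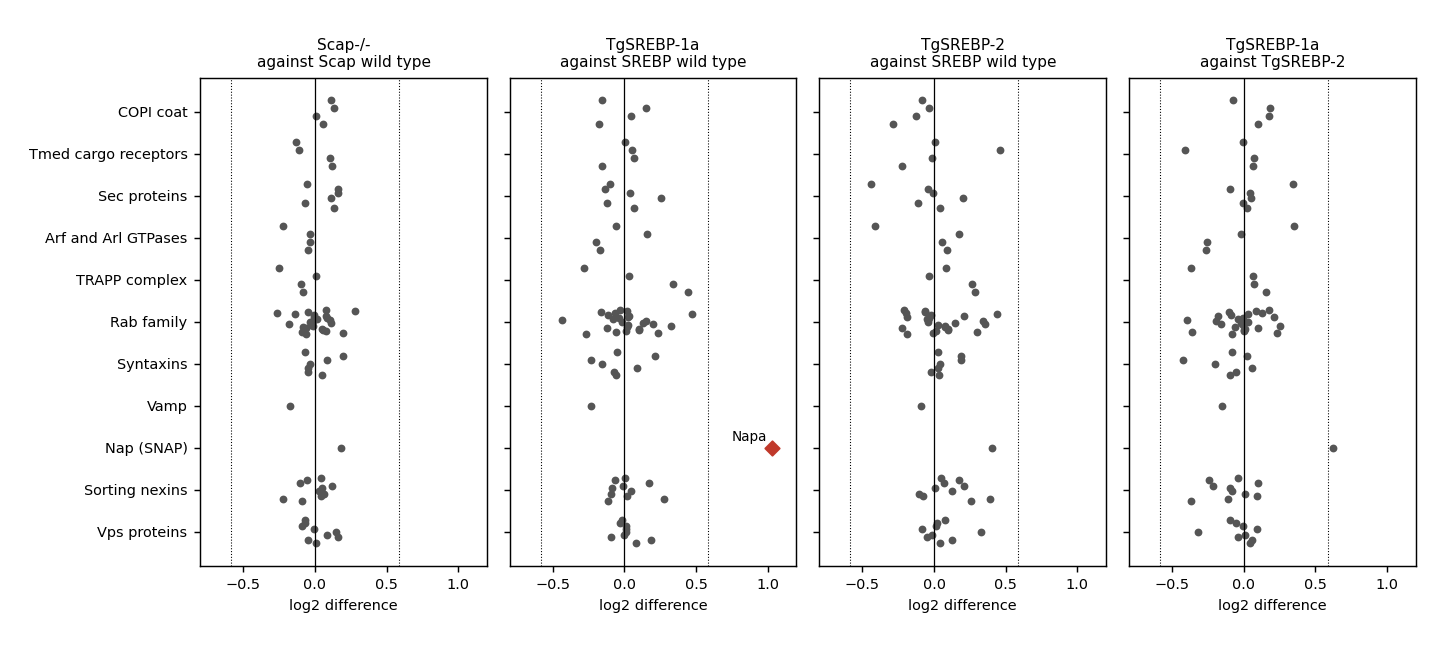
Log2 difference of each of the 75 genes (points) by family in 4 comparisons; dotted lines mark 1.5-fold and the diamond marks a called gene. Napa in TgSREBP-1a (1.03) is the only diamond.

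Napa encodes alpha-SNAP, the adaptor through which the ATPase NSF takes SNARE complexes apart after membrane fusion, so that syntaxins and Vamps can be used again. Its promoter is shown because it belongs to the 1 called member. The letters are the 250 bases before the RefSeq start site (GRCm38.p6, chr7:16098330-16098579, plus strand), with each CACGTG in capitals:

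Napa: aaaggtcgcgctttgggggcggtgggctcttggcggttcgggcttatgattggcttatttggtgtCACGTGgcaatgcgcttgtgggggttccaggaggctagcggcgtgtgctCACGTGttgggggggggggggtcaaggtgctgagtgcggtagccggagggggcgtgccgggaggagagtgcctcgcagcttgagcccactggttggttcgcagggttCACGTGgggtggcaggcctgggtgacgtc

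CACGTG, an E-box that reads the same on both strands, begins at -185, -136 and -29 from the start site. At least 3 such matches occurred in 29 of 32851 RefSeq windows of 250 bases before to 50 after a start (0.0883%), and at least 1 in 7.15%. Of the 73 windows found for 60 member genes, 11 (15.1%) held at least 1. The sterol element letters TCACNCCAC, searched on both strands, were absent from the Napa window and present in 1.24% of all windows, and among members in that of Rab3a alone. The shorter CACNCCAC lay at -26 on the minus strand, overlapping the last CACGTG; it occurs in 6.24% of windows. CCAAT occurred once in the Napa window (37.4% of all windows), and GGGCGG began at -234 and 8. At least 1 GGGCGG occurred in 35.7% of all windows and at least 2 in 19.5%. The promoters of Nsdhl, Pmvk, Tm7sf2, Fads2 and Abcg8, whose genes were called higher in TgSREBP-1a, held 0 CACGTG, and also 0 TCACNCCAC and 0 CACNCCAC. These motifs were chosen after the values were seen, and a match is a description of letters, not of binding.

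The brighter Napa probe set read 6.06 and 5.95 on the TgSREBP-1a arrays, against 5.13 and 4.81 in SREBP wild type. TgSREBP-2 read 5.53 and 5.22, Scap wild type 5.15 and 4.83, and Scap-/- 5.38 and 4.97. In each group replicate 1, given first, read higher than replicate 2. Both TgSREBP-1a arrays lay above all 8 others, and TgSREBP-2 lay above SREBP wild type without overlap. In TgSREBP-1a, Napa rose 2.04-fold (6.001 ± 0.08 against 4.97 ± 0.22, SD, n = 2 hybridisations; log2 difference 1.03, SE 0.17, 95% interval 0.66 to 1.40, limma adjusted p = 0.0122). In TgSREBP-2 the difference was 0.41 (95% interval 0.03 to 0.78, adjusted p = 0.783), and TgSREBP-1a exceeded TgSREBP-2 by 0.63 (0.25 to 0.997, adjusted p = 0.241), neither called. In Scap-/- it was 0.19.

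The call rests on few arrays. It was lost without SREBP wild type replicate 2 (0.88), TgSREBP-1a replicate 1 (0.98) or TgSREBP-1a replicate 2 (1.09). Each of these fits leaves 1 array in a group, and fewer of all probe sets were called in them too. The call was also lost with limma's treat against 1.2-fold (adjusted p = 0.0812). The lowest limma adjusted p, 0.000164, came with the replicate number as a block. Over all alternatives the difference ran from 0.63 to 1.19. The second Napa probe set was dim: 3.34 and 3.25 in TgSREBP-1a, 3.06 and 3.10 in SREBP wild type, and 3.51 and 3.24 in TgSREBP-2. It differed by 0.22 in TgSREBP-1a and by 0.30 in TgSREBP-2, and was not called. The probe sets thus shared a sign in both transgenics, but the dim one did not put TgSREBP-1a above TgSREBP-2 (-0.08).

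Markers of other cells differed between the same pools. Of the 13 listed Kupffer and macrophage markers 3 were measured: Vsig4 (1.14) and Laptm5 (1.05) rose in TgSREBP-1a, and C1qc differed by 0.17. Their summed linear signal was 547 to 707 in SREBP wild type, 1195 to 1267 in TgSREBP-1a and 878 to 954 in TgSREBP-2, the same order of groups as Napa. In Scap wild type it was 777 to 873 and in Scap-/- 740 to 957, above SREBP wild type, while Napa read alike in both wild types. Of the 15 listed pancreatic acinar markers 4 were measured (Cpa1, Gp2, Cuzd1 and Cela2a), summing to 873 to 1366 in SREBP wild type, 132 to 139 in TgSREBP-1a and 1667 to 2094 in TgSREBP-2, and to 450 to 463 in Scap wild type and 124 to 136 in Scap-/-. The method yields no zeros, so no defining marker was at 0. Of 3 measured bile duct markers 1, Epcam, fell by 0.63 in TgSREBP-1a (limma adjusted p = 0.00538), while Sox9 and Cldn7 differed by 0.24 and 0.10. The hepatocyte marker Fga differed by -1.04 in TgSREBP-1a (limma adjusted p = 0.0665, not called). Tdo2, Serpina1a and Ahsg, the other measured hepatocyte markers, differed by -0.11, -0.34 and 0.03. The part of these markers in the Napa result was not tested.

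**Figure D4:**
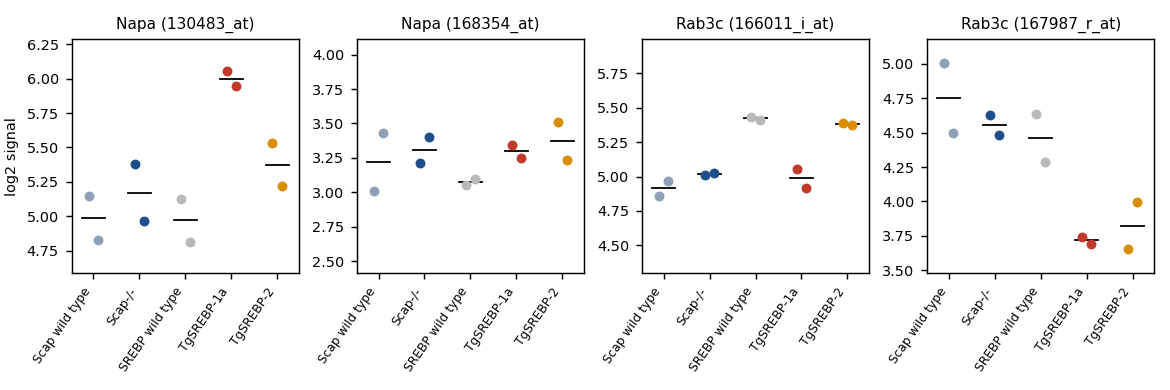
Log2 signal (vertical axis, each panel spanning 1.7 units) of both probe sets of Napa and of Rab3c on each array (points) in the 5 groups, with the group mean as a bar. The brighter Napa probe set (first panel) is highest on both TgSREBP-1a arrays (6.06 and 5.95), while the probe sets of Rab3c order the groups differently.

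Along the outward route, Sec23a is the only measured member of the COPII coat, the inner-coat protein that works with the GTPase Sar1. It read 3.70 and 3.36 in Scap-/- and 3.85 and 2.98 in Scap wild type, with overlap. In TgSREBP-1a it read 3.45 and 3.57, in TgSREBP-2 3.41 and 3.50, and in SREBP wild type 3.28 and 3.23. Both transgenics lay above their wild type without overlap, by 0.25 (95% interval -0.23 to 0.73) and 0.20 (-0.28 to 0.68), and neither was called. The intervals are wide, because the Scap wild type arrays enter the same estimate of spread.

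Sec61a2, Sec62 and Sec63 belong to the translocon, through which new proteins enter the ER, and none was called. Sec63 read 4.60 and 4.25 in TgSREBP-2 against 4.98 and 4.75 in SREBP wild type (-0.44, 95% interval -0.92 to 0.04). Its Scap-/- duplicates, 5.52 and 4.76, differed by more than that. Sec62 read 3.17 and 2.98 in Scap-/- against 2.93 and 2.90 in Scap wild type, a difference of 0.16 with no overlap.

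On the return route, the 4 measured COPI subunits, Copa, Copb1, Copg1 and Copz1, gave no call. Their differences were all positive in Scap-/-, from 0.01 to 0.13, and all negative in TgSREBP-2, from -0.28 to -0.03, with medians of 0.08 and -0.11 beside 0.00 and -0.01 over all probe sets. Copa read 3.66 and 3.39 in TgSREBP-2 and 3.70 and 3.93 in SREBP wild type, which did not overlap. Copg1, the gamma subunit, has 3 probe sets that disagreed: in Scap-/- they gave 0.13, 0.09 and 0.40, in TgSREBP-1a 0.15, -0.24 and 0.04, and in TgSREBP-2 -0.03, 0.01 and 0.01. The shared negative sign in TgSREBP-2 thus holds for the brightest probe sets alone.

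Tmed proteins are cargo receptors that cycle between ER and Golgi in both kinds of coat. Tmed6 read 3.38 and 3.19 in TgSREBP-2 against 2.86 and 2.80 in SREBP wild type and 2.89 and 2.87 in TgSREBP-1a. The TgSREBP-2 arrays lay above all 8 others, though the signal is among the low ones of the array. The difference was 0.46 from SREBP wild type (SE 0.11, unadjusted p = 0.0012, limma adjusted p = 0.257), and TgSREBP-1a lay 0.41 below TgSREBP-2 (log2 difference -0.41, adjusted p = 0.211). The acinar sum was also highest in TgSREBP-2; in TgSREBP-1a, where that sum was 132 to 139, Tmed6 differed by 0.05. The part of acinar RNA in the Tmed6 values was not tested. Tmed5, Tmed7 and Tmed11 differed by at most 0.23 in size in the 4 comparisons, Tmed11 in TgSREBP-2 having the largest value (-0.23).

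TRAPP complexes tether vesicles and activate Rab GTPases, and of 4 measured subunits none was called. Trappc11 read 6.05 and 6.06 in TgSREBP-1a, 6.01 and 5.78 in TgSREBP-2 and 5.73 and 5.50 in SREBP wild type. Both transgenics lay above that wild type, by 0.44 (95% interval 0.16 to 0.73, adjusted p = 0.212) and 0.28. The Scap wild type arrays, at 6.17 and 5.996, were as high as the TgSREBP-1a ones. Trappc3, part of the core of the complex, read 4.43 and 4.55 in Scap-/- against 4.71 and 4.76 in Scap wild type (-0.25, 95% interval -0.50 to 0.00). In TgSREBP-1a it read 4.40 and 4.69 against 4.88 and 4.78 (-0.28, adjusted p = 0.442), and TgSREBP-2 read 4.98 and 4.85. Trappc3 was thus lower than its wild type in both Scap-/- and TgSREBP-1a, without overlap and without a call. Trappc13 differed by 0.34 in TgSREBP-1a on a probe set whose Scap wild type duplicates were 3.60 and 2.61, and by 0.01 on the other.

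Rab GTPases mark membranes and recruit the machinery for their transport, and the 25 genes of that name had medians of -0.01, 0.02, 0.00 and 0.00 in Scap-/-, TgSREBP-1a, TgSREBP-2 and TgSREBP-1a against TgSREBP-2. Rab8a, which serves transport from the Golgi to the cell surface, had the largest difference in Scap-/-: 6.07 and 5.97 against 5.82 and 5.65 (0.28, unadjusted p = 0.038, adjusted p = 0.999). It was the one member under 0.05 in that comparison, and in TgSREBP-1a it differed by 0.02.

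Rab3c, a GTPase of regulated secretion, came nearest to a second call by adjusted p. The difference on its brighter probe set was also short of the 1.5-fold floor (0.58 in log2). The brighter probe set read 5.06 and 4.92 in TgSREBP-1a, against 5.43 and 5.41 in SREBP wild type and 5.39 and 5.38 in TgSREBP-2. TgSREBP-1a lay below both without overlap, by 0.44 (log2 difference -0.44, SE 0.09, limma adjusted p = 0.0550) and 0.40 (log2 difference -0.40, adjusted p = 0.148). Both Scap groups, at 4.86 to 5.03, were as low as TgSREBP-1a. The dimmer probe set read 3.74 and 3.69 in TgSREBP-1a, 3.65 and 3.99 in TgSREBP-2 and 4.64 and 4.28 in SREBP wild type. On that probe set both transgenics were lower than their wild type (-0.74, adjusted p = 0.0845, and -0.64, adjusted p = 0.413), so the probe sets agreed for TgSREBP-1a and disagreed for TgSREBP-2. Averaged over its probe sets, Rab3c fell by 0.59 in TgSREBP-1a (adjusted p = 0.0259).

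Other Rab genes differed without a call. Rab28 read 7.76 and 7.67 in TgSREBP-1a against 7.41 and 7.36 in SREBP wild type (0.33, adjusted p = 0.372). Rab3a, a relative of Rab3c on secretory vesicles, read 6.77 and 6.74 in TgSREBP-2 against 6.53 and 6.30 (0.34, adjusted p = 0.489), and its dimmer probe set differed by 0.02. Rab5if, named as an interactor of Rab5, differed by 0.47 in TgSREBP-1a and 0.44 in TgSREBP-2; its SREBP wild type duplicates, 3.70 and 3.15, were further apart than either. Rab11a, of recycling endosomes, differed by 0.20, 0.23 and 0.00 in Scap-/-, TgSREBP-1a and TgSREBP-2.

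Rab22a and Rab9b, both of endosomal transport, differed by -0.22 and -0.21 in TgSREBP-2, and Rab10os by -0.27 in TgSREBP-1a. Rab40b had the lowest mean signal of all members and differed by 0.21 between TgSREBP-1a and TgSREBP-2. Rab6a, of the Golgi, had the lowest difference of all members in Scap-/- (-0.26), with overlapping arrays.

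Among SNARE proteins, Stx3, a syntaxin of the apical plasma membrane, separated the transgenics. It read 5.02 and 5.09 in TgSREBP-1a and 5.49 and 5.47 in TgSREBP-2, with SREBP wild type between them at 5.42 and 5.16. TgSREBP-1a was lower than TgSREBP-2 without overlap (-0.42, SE 0.11, adjusted p = 0.196) and lower than SREBP wild type by 0.23 on the log2 scale (log2 difference -0.23, adjusted p = 0.544). Vamp4, a SNARE of the trans-Golgi network, had close duplicates: 3.88 and 3.88 in Scap-/- against 4.03 and 4.08 in Scap wild type, and 3.78 and 3.76 in TgSREBP-1a against 4.01 and 4.003 in SREBP wild type. It was lower than the wild type in both, by small amounts (-0.18 and -0.24, adjusted p = 0.999 and 0.370). Stx6, its partner syntaxin at the trans-Golgi, was higher in the same 2 groups by 0.20 and 0.21, and by 0.19 in TgSREBP-2, without overlap in any and with no call. On their brightest probe sets, Stx7, Stx11, Stx12 and Stx16 differed by at most 0.10 in size in all 4 comparisons. The second probe set of Stx7 differed by -0.13 in TgSREBP-1a and by -0.15 between the transgenics. That of Stx11 differed by -0.11 between the transgenics.

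**Figure D5:**
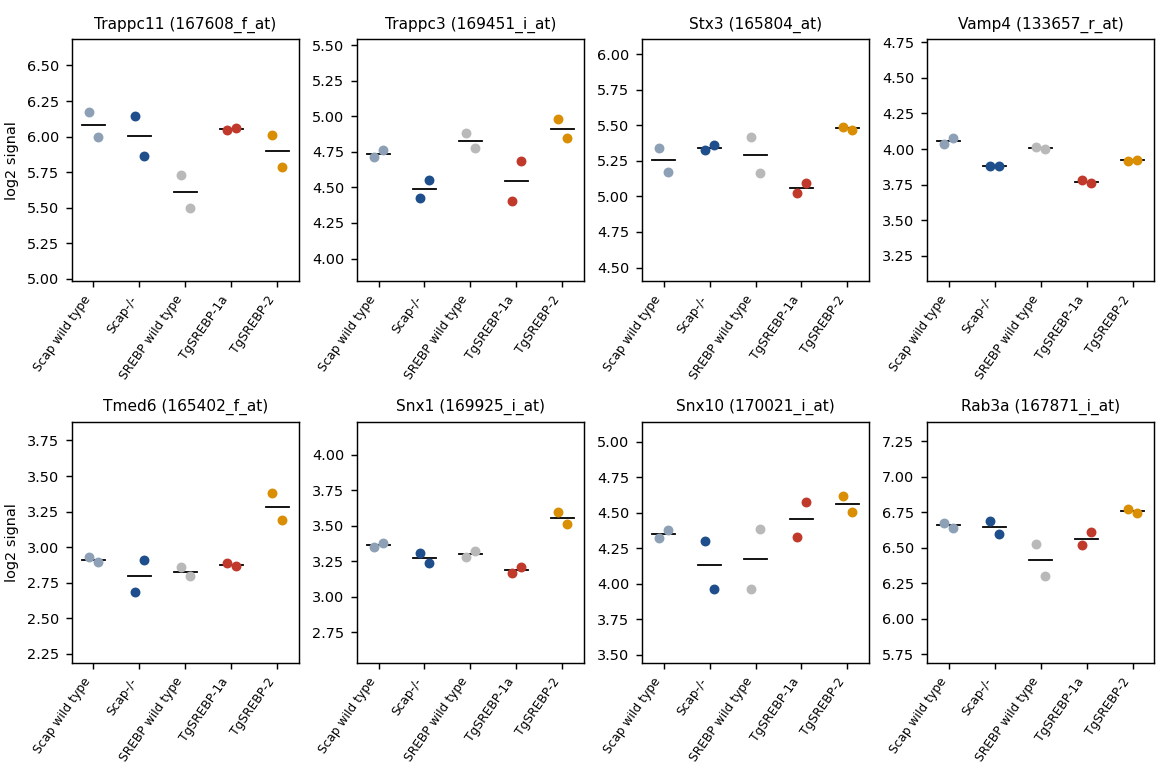
Log2 signal (vertical axis, each panel spanning 1.7 units) of 8 members that were not called, on each array (points) in the 5 groups, with group means as bars. Tmed6 and Snx1 are highest on both TgSREBP-2 arrays, and Stx3 is lowest on both TgSREBP-1a arrays.

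Sorting nexins bind endosomal phosphoinositides and, with the Vps proteins of the retromer, return receptors from endosomes. Of the 10, 8 had positive differences in TgSREBP-2 (median 0.10, beside -0.01 over all probe sets), as had 43 of all 75 members. All 10 were read against the same 2 SREBP wild type arrays, and 2 had an unadjusted limma p under 0.05. No sorting nexin was called in any comparison. Snx1, a membrane-bending partner of the retromer, read 3.60 and 3.51 in TgSREBP-2, 3.28 and 3.32 in SREBP wild type and 3.17 and 3.21 in TgSREBP-1a. The 3 groups did not overlap, and TgSREBP-1a differed from TgSREBP-2 by -0.37 (SE 0.09, adjusted p = 0.164). Snx10, of endosomes and lysosomes, read 4.62 and 4.51 in TgSREBP-2 against 3.97 and 4.38 in SREBP wild type (0.39, adjusted p = 0.764), and in Scap-/- it differed by -0.22. The wild-type duplicates of Snx10 were as far apart as the groups.

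The Vps proteins were the most level family in TgSREBP-1a, with a median size of difference of 0.02 beside 0.09 over all probe sets. Vps33b, which works in vesicle fusion at lysosomes and at the bile canaliculus, read 8.36 and 8.09 in TgSREBP-2 against 7.96 and 7.83 in SREBP wild type and 7.89 and 7.92 in TgSREBP-1a. It was higher in TgSREBP-2 than in both without overlap, by 0.33 and 0.32, at an adjusted p of 0.599 and 0.410 (limma). In Scap-/- it differed by 0.15, and Vps18, of the tethering complexes HOPS and CORVET, by 0.16. Vps26a of the retromer and Vps4b, the ATPase of the ESCRT machinery, differed by at most 0.09 in size throughout.

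Arf and Arl GTPases recruit coats and tethers. On their brightest probe sets the 4 measured genes had negative differences in Scap-/-, from -0.22 to -0.03 (median -0.04, beside 0.00 over all probe sets), with no call. The second probe set of Arl11 differed by 0.01. Arl15 read 4.25 and 4.60 in TgSREBP-2 against 5.06 and 4.62 in SREBP wild type (-0.41, 95% interval -0.79 to -0.04, adjusted p = 0.783). The groups lay apart by only the width between 4.60 and 4.62. Arf6, of the plasma membrane, had its widest difference between TgSREBP-1a and TgSREBP-2 (-0.26).

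Other genes of these pathways, outside the symbol rule, gave 0 calls in all 4 comparisons, beside 0.0843% to 1.04% of all probe sets. From the SREBP processing list 1 of 15 genes was measured, Mbtps1, the Golgi protease that makes the first cut in SREBPs, at 0.16 in Scap-/-, -0.17 in TgSREBP-1a and -0.08 in TgSREBP-2. The COPII accessory list had 8 of 24 measured, with Sar1a, the GTPase that starts the coat, at 0.02, 0.11 and 0.18. Golgi tethers and SNAREs had 7 of 35 measured, clathrin adaptors and endosomal genes 10 of 44, and Rab and Arf regulators 10 of 36, of which Rab3gap2 is also a member. Medians of these 4 lists lay between -0.04 and 0.13 over the 4 comparisons. At an unadjusted limma p under 0.05 they held 0 to 2 genes each, of 7 to 10 measured, beside 3.8% to 9.4% of all probe sets. Among these genes, named after their values were seen, were Tbc1d23 (0.33) and Rabac1 (0.24) in TgSREBP-1a and Cnih1 (-0.30) in TgSREBP-2.

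The wild types of both experiments differed by a median of -0.02 over the members (Scap wild type minus SREBP wild type). Only Rab3c differed by more than 0.5 (-0.51), and its dimmer probe set differed the other way (0.29). Diet, age, injections and study go with that difference and cannot be told apart.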

How the data were processed

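The authors made the deposited log2 signals per probe set with RMA (background correction, normalisation across arrays, probe summary), per the submitters' processing notes, with no version given. The design text names Microarray Suite 5.0. The log2 scale was read from the range (2.17 to 13.3) and was not changed. Of 11934 probe sets, 66 controls were left out. The platform annotation names 1 gene for 7717 probe sets, several for 150 and none for 4001; all 75 members matched RefSeq.

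A limma 3.58.1 fit in R 4.3.3 (lmFit, eBayes) held 10 arrays and 5 groups, with 5 residual and 6.26 prior degrees of freedom and a median SE of 0.11. Two-sided p-values were adjusted by the Benjamini-Hochberg method over 11868 probe sets, separately in 4 comparisons. The procedure was tested on simulated data.

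Genes named are called members, the 5 highest and 5 lowest per comparison among members with non-overlapping arrays, members of the SCAP route and further probe sets of these; others, such as Rab6a, Rab11a, Tbc1d23, Rabac1 and Cnih1, were named after their values were seen. Members and lists were chosen with earlier results of these data known. The number of arrays limits the precision.

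Each count was recomputed with quantile normalisation, median centring, cyclic loess, brighter or plain _at probe sets, the mean over a gene's probe sets, a variance trend, robust variance, no or a 2-fold floor, treat, arrays of the same study, a replicate block and without each array. A test of the brightest probe sets alone and the 18S signal as a covariate were added after seeing the data.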

Additional observations from a re-analysis of the deposited data

How the results depend on the processing

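The counts of called members, 0 in Scap-/-, 1 in TgSREBP-1a, 0 in TgSREBP-2 and 0 between the transgenics, were recomputed under 25 alternatives. In TgSREBP-1a the count was 2 with the mean over a gene's probe sets, where Rab3c joined Napa, and 0 with treat against 1.2-fold. Napa was not called without SREBP wild type replicate 2, TgSREBP-1a replicate 1 or TgSREBP-1a replicate 2. Those fits leave 1 array in a group and called fewer of all probe sets too. With the replicate number as a block, 1 member was called between TgSREBP-1a and TgSREBP-2, Napa (0.63, adjusted p = 0.0111). Duplicate deviations correlated at over 0.1 in 7 of 10 pairs of groups and at or below it in the other 3 (-0.17 to 0.33 in all). A pairing was accepted only where every pair of groups passed, so the numbers were not taken as one. In each group, though, replicate 2 had the higher 18S signal, the lower Napa signal and the lower median of the members. What the replicate numbers stand for is not in the labels and was not tested. Of all tested probe sets, the replicate block called 19, 186, 37 and 96 in Scap-/-, TgSREBP-1a, TgSREBP-2 and between the transgenics, beside 10, 123, 14 and 61 without it. Treat called 6, 47, 9 and 27. The other counts of members did not move. Of 40 named gene results, 39 kept their sign in every alternative; Copg1 between the transgenics was -0.01 with the mean over its probe sets. A pseudocount was not tried, as the values are already logarithms. Dim probe sets, such as those of Copb1, Tmed5 and Rab40b, limit what small differences can show.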
